A study of Rattus norvegicus with 6 samples.

Results

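The SLC25 genes encode the mitochondrial carrier family, the proteins that move nucleotides, phosphate, organic acids, amino acids, cofactors and iron-related substrates across the inner mitochondrial membrane. Most members are small proteins built from repeats of a pair of membrane helices, and most work as exchangers or as transporters driven by the proton gradient. They join the enzymes of the cytosol to those of the matrix: the ADP/ATP and phosphate carriers feed ATP synthesis, and the aspartate/glutamate and oxoglutarate carriers form the malate-aspartate shuttle that brings reducing power from glycolysis into the matrix. Members were chosen by symbol, as every row of the mRNA table whose name begins with Slc25a and a number. This gave 44 genes of 16551 in the table. Family members that carry other names, such as the uncoupling protein Ucp2, were kept apart and are given near the end.

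Primary cells of rat dorsal root ganglia, taken from lumbar and sacral levels, were dissociated and kept in culture. The control group of 3 samples had DMEM whose glucose level was not given, and the group titled DM, taken here as the high-glucose group, had medium with glucose at 45 mmol/L for 48 h, also in 3 samples. No strain, sex, age or genotype was given, no agent other than glucose was named, and no sample controlled for osmolarity. The samples of a group are called duplicates in the labels, and nothing says that they came from separate cultures or animals, so each p-value below reflects the spread among these samples alone, and that spread may be technical.

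Each sample held 28780612 to 33108451 reads over the table. The labels call the cells nerve cells, but pan-neuronal markers had a median level of -0.45 on the log2 CPM scale (reads relative to the scaled library size), with 12 of 12 detected. Of these 7 were lower and 1 higher in high glucose. The summed level of those 12 markers ran from 110 to 114 CPM in control and from 75.7 to 77.7 CPM in high glucose. That of 9 fibroblast markers ran from 57620 to 59790 and from 52990 to 55597 CPM, with 4 of the 9 higher and 3 lower. Most of the fibroblast sum was Col1a1, which fell from a mean of 34811 to 26170 CPM, and Col3a1, which rose from 20016 to 24277 CPM. Of 9 markers of Schwann and satellite glia, 8 were lower in high glucose (summed level 495 to 517 CPM in control and 301 to 332 in high glucose). Of 9 mural and smooth muscle markers 6 were lower and 2 higher (13970 to 14081 and 7508 to 7558 CPM), and most of that sum was Acta2 and Tagln, which both fell. Of 6 endothelial markers none passed, and of 9 macrophage markers 2 were higher and 3 lower (29.4 to 29.9 and 34.1 to 35.4 CPM). The part of these shifts in the carrier results was not tested, and in such bulk samples fewer cells of a type and less RNA per cell cannot be told apart.

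The comparison asked which mitochondrial carriers changed in level when the cells were kept in high glucose. The pyrimidine nucleotide carrier Slc25a33 was 2.05-fold lower, the aspartate/glutamate carrier Slc25a13 was 1.51-fold lower, the iron carrier Slc25a37 was 1.46-fold lower and both ADP/ATP carriers Slc25a4 and Slc25a5 fell. Carriers of dicarboxylates (Slc25a10, Slc25a11, Slc25a21), of glycine (Slc25a38) and of folate (Slc25a32) rose, as did Slc25a12, the other aspartate/glutamate carrier. For Slc25a21 the rise did not pass in 5 of 14 alternative settings. Of the 44 members, 23 passed the limma test (threshold 0.05 on the adjusted p): 13 rose in high glucose and 10 fell. Over all 16551 genes 50.5% passed, 24.9% higher and 25.5% lower, so the count among the carriers (52.3%) was near that background. Slc25a48, counted among the 13, had no reads in control and met the table's minimum of reads in 3 samples through high glucose alone, so its call is no test. Without it 12 of 43 rose, 10 fell and 51.2% passed. The groups of 3 did not overlap in 27 members, or 61.4%, against 57.6% of all genes.

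Most of the differences were small. Of the members 4 passed with a change of at least 1.5-fold (Slc25a48, Slc25a21, Slc25a13 and Slc25a33), which is 9.09% against 16.0% of all genes, and 2 passed with at least 2-fold (4.55% against 8.25%). These counts were 3 and 1 without Slc25a48. The median log2 difference, high glucose minus control, was -0.01 over the members and 0.01 over all genes, and the median absolute difference was 0.20 and 0.28. All 44 members entered the fit, of which 16 had a mean level of at least 4 log2 CPM, 20 lay between 0 and 4, and 8 lay under 0. In the well-read class 12 of 16 passed (75.0%, and 69.1% of all genes at that level), in the middle class 9 of 20 (45.0%, and 50.1%), and in the scarce class 2 of 8 (25.0%, and 18.6%), or 1 of 7 without Slc25a48.

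**Figure D1:**
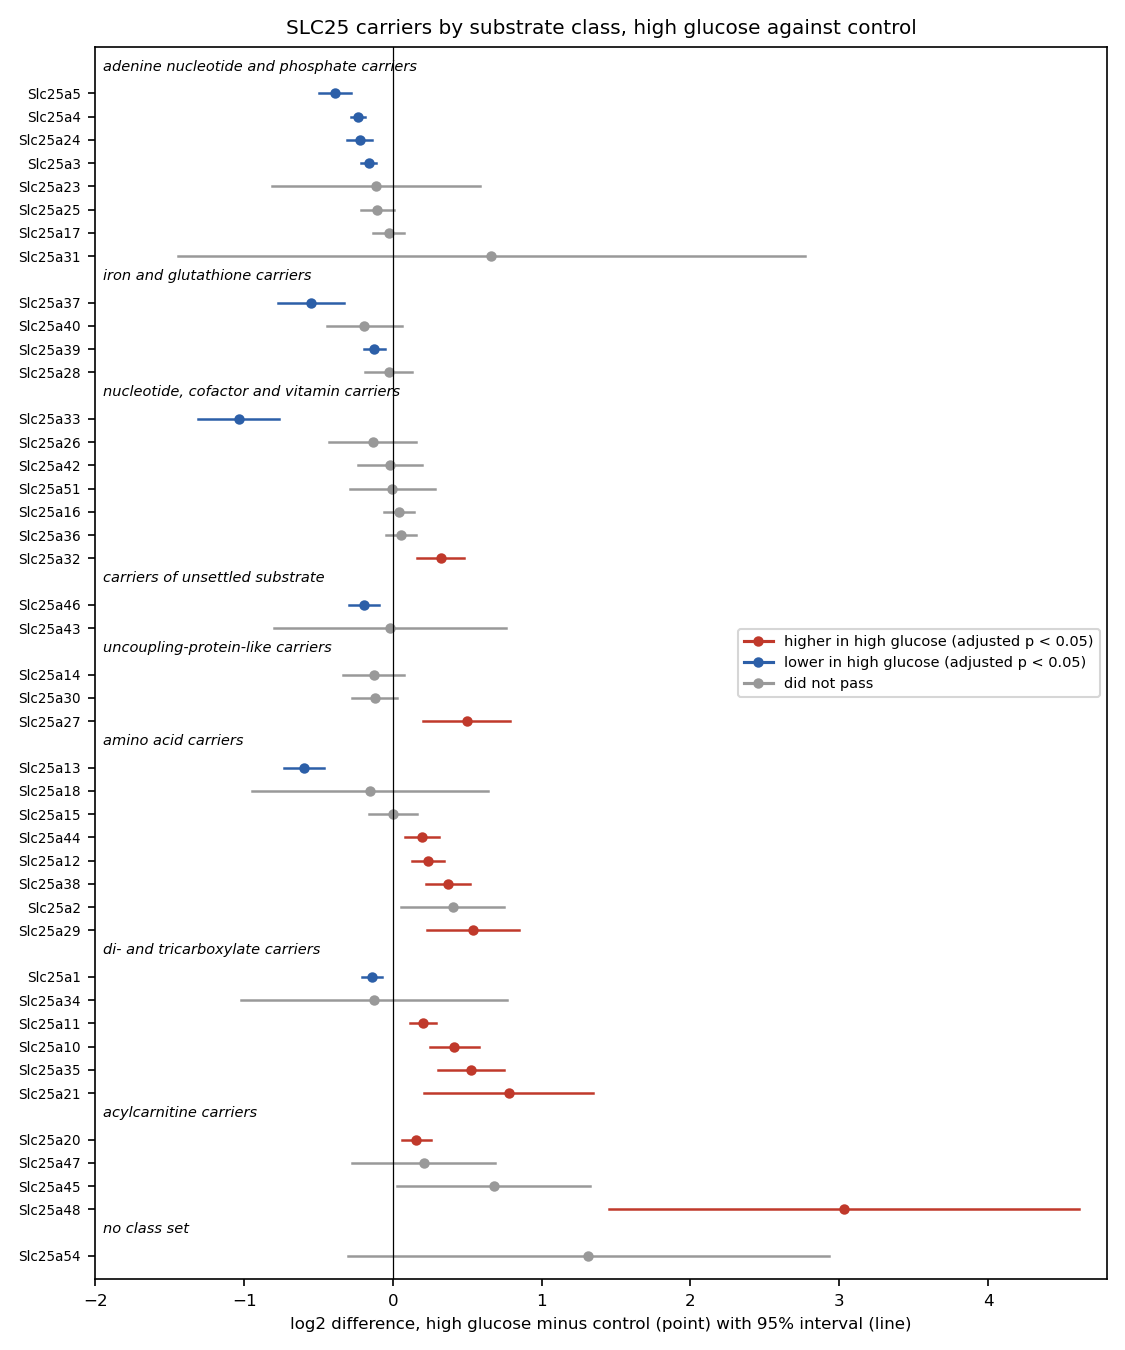
Log2 difference, high glucose minus control (x axis), for 43 of the 44 SLC25 genes (y axis, grouped by substrate class); points are the fitted difference and lines its 95% interval, from 3 samples a group, red where higher, blue where lower and grey where the limma test was not passed. Slc25a33 lies farthest to the left at -1.04, the called adenine nucleotide and phosphate carriers are all to the left of 0, and Slc25a48 at 3.03 rests on 12 reads, none of them in control.

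The direction of the smallest changes depended on how the libraries were scaled. The deposited values divide the reads by library sizes multiplied by 0.959 to 0.964 in control and by 1.03 to 1.05 in high glucose. With plain library totals in their place, the median of all genes moved by 0.11 on the log2 scale, 17 members were higher and 6 lower, and over all genes 35.8% were higher and 17.2% lower. The share of all reads that fell on the 44 members was 0.127% ± 0.0020 (SD, n = 3) in control and 0.127% ± 0.0015 in high glucose. On the deposited scale the same reads summed to 1313, 1315 and 1344 CPM in the control samples and to 1213, 1229 and 1223 CPM in the high-glucose samples. Of the 23 members that passed, 19 passed in the same direction with plain totals. The other 4, Slc25a1, Slc25a3, Slc25a39 and Slc25a46, are named as such below. The counts by class below cover 2 to 8 members each and are descriptions, to be read against the shares of all genes on each scale.

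Among the 8 adenine nucleotide and phosphate carriers measured there were 4 that fell and none that rose. The share that passed in either direction was near the 50.5% of all genes. Of all genes 25.5% fell, and of those with a mean level of at least 4 log2 CPM 38.7% did. With plain totals 3 fell and none rose, where 17.2% of all genes fell, and the median log2 difference on the deposited scale was -0.14. Slc25a4 (ENSRNOG00000010830) encodes the ADP/ATP carrier known from heart and muscle, which exchanges matrix ATP for cytosolic ADP. It had 314, 307 and 312 CPM in the control samples and 269, 257 and 267 CPM in the high-glucose samples. All 3 high-glucose samples were below all 3 controls, a log2 difference of -0.24 ± 0.023 (standard error, as in all such pairs below, adjusted p = 1.2e-06). Slc25a5 (ENSRNOG00000039980), the ADP/ATP carrier of proliferating cells, had 88.6, 95.4 and 94.7 CPM in control and 68.5, 77.7 and 67.3 CPM in high glucose. It was 1.31-fold lower with no overlap (-0.39 ± 0.049, adjusted p = 1.94e-05). The RefSeq gene table lists 9 pseudogenes named after Slc25a5 and 1 after Slc25a4, so that the counting could have split reads among copies.

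Slc25a3 (ENSRNOG00000008289), the carrier that imports the phosphate used in ATP synthesis, had 236, 236 and 247 CPM in control and 211, 216 and 215 CPM in high glucose. The groups did not overlap and the log2 difference was -0.16 ± 0.024 (adjusted p = 7.39e-05), but with plain totals it was -0.05 and did not pass (adjusted p = 0.107). Slc25a24 (ENSRNOG00000020470), a calcium-regulated carrier that exchanges ATP-magnesium for phosphate, had 79.1, 81.8 and 75.3 CPM in control and 64.5, 68.7 and 69.1 CPM in high glucose, all 3 below the controls (-0.22 ± 0.039). Its relatives Slc25a25 and Slc25a23 did not pass, with log2 differences of -0.11 (95% interval -0.22 to 0.01) and -0.11 (-0.81 to 0.59). The peroxisomal carrier Slc25a17 did not pass either (-0.03, 95% interval -0.14 to 0.08). Slc25a31, the ADP/ATP carrier of germ cells, had 1 read in the whole control group and 3 in the high-glucose group, so the ratio was 2.77 and its exact interval from counting error (95%) ran from 0.223 to 146.

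Slc25a33 (ENSRNOG00000016949) and Slc25a36 (ENSRNOG00000013802) carry pyrimidine nucleotides, which the matrix needs for the synthesis of mitochondrial DNA and RNA. Slc25a33 had 5.51, 6.83 and 6.76 CPM in control and 3.23, 3.22 and 2.81 CPM in high glucose, on 564 and 294 reads. Every high-glucose sample lay below every control, and the log2 difference was -1.04 ± 0.13 (adjusted p = 1.22e-05), and it stayed within -1.14 and -0.92 in the alternatives. Slc25a36 had 41.8, 41.9 and 42.5 CPM in control and 42.3, 41.8 and 47.1 CPM in high glucose. Its groups overlapped and it did not pass (0.05, 95% interval -0.05 to 0.15), whereas with plain totals it was higher (0.17, adjusted p = 0.00522).

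Among the other carriers of nucleotides, cofactors and vitamins, Slc25a32 (ENSRNOG00000004403), the carrier for folate, had 11.5, 11.4 and 12.8 CPM in control and 14.3, 16.0 and 14.2 CPM in high glucose. It rose 1.25-fold (0.32 ± 0.073), with all high-glucose samples on top. Slc25a16, Slc25a26, Slc25a42 and Slc25a51 did not pass, with log2 differences between -0.14 and 0.04. Slc25a26 imports S-adenosylmethionine, Slc25a42 coenzyme A and Slc25a51 NAD. Slc25a16 was higher with plain totals (0.16, adjusted p = 0.0114). Of the 8 in this class, 2 rose, 1 fell and 5 did not pass, and 4 were higher and 1 lower with plain totals, where 35.8% of all genes were higher.

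**Figure D2:**
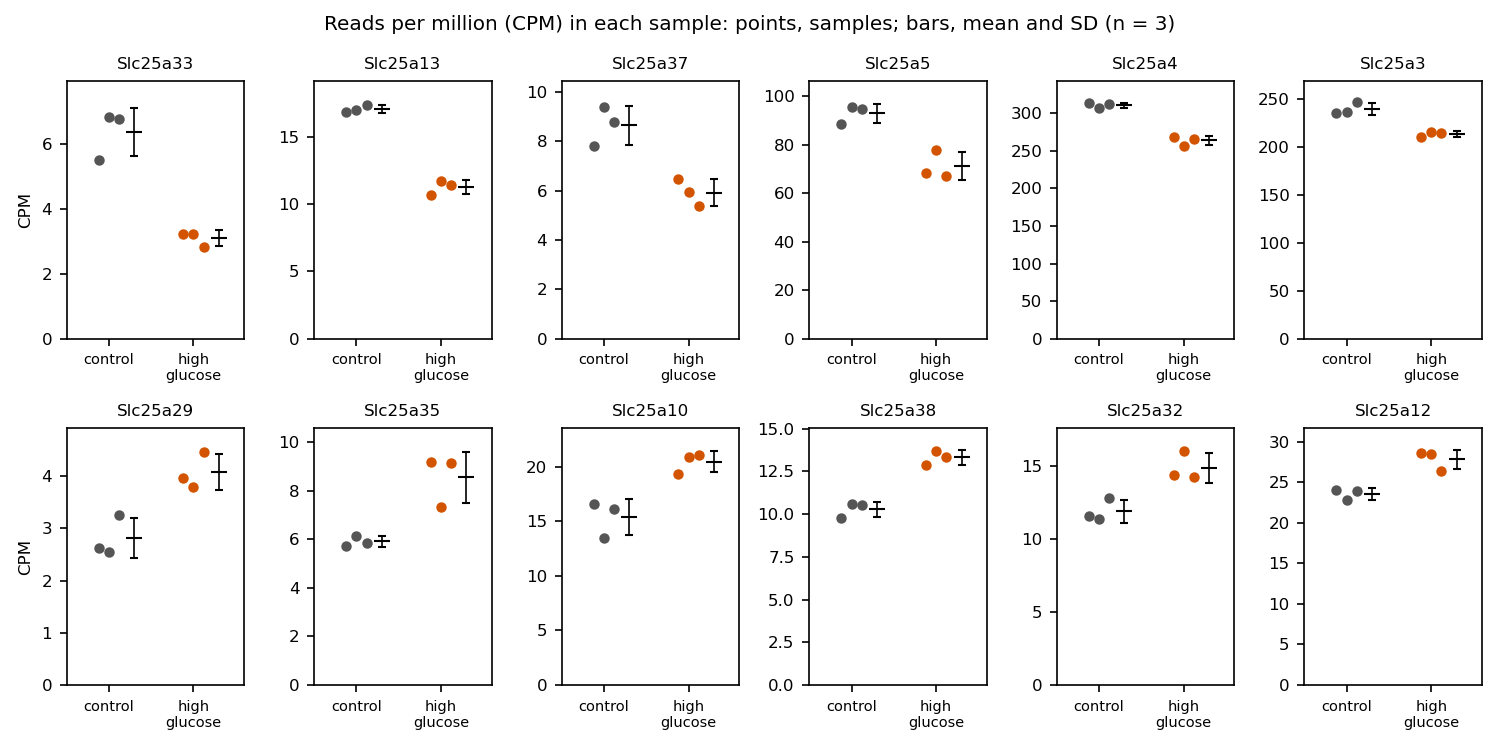
Reads relative to the scaled library size (CPM, y axis from 0) in each of the 3 control and 3 high-glucose samples for 12 carriers; points are samples and the bars beside them the mean and SD. In the upper row, all members fell on the deposited scale, Slc25a33 to between 2.81 and 3.23 CPM. In the lower row all rose, and the groups did not overlap in any panel. With plain library totals, Slc25a3 did not pass.

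The amino acid carriers held the opposite changes of the aspartate/glutamate carriers. Both export aspartate to the cytosol in exchange for glutamate, are regulated by calcium and form 1 arm of the malate-aspartate shuttle; Slc25a12 (aralar) is the form known from brain and muscle, and Slc25a13 (citrin) that of liver. Slc25a13 (ENSRNOG00000009957) had 16.9, 17.0 and 17.4 CPM in control and 10.7, 11.7 and 11.4 CPM in high glucose, a log2 difference of -0.60 ± 0.062 (adjusted p = 2.67e-06). Slc25a12 (ENSRNOG00000022922) had 24.1, 22.8 and 23.9 CPM in control and 28.6, 28.5 and 26.4 CPM in high glucose, a rise of 1.18-fold (0.24 ± 0.049, adjusted p = 0.0012). Neither pair of groups overlapped, and both calls were kept in each alternative that was run.

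Slc25a38 (ENSRNOG00000018552), which imports glycine for haem synthesis, had 9.79, 10.6 and 10.5 CPM in control and 12.9, 13.7 and 13.3 CPM in high glucose. It rose 1.29-fold with no overlap (0.37 ± 0.068, adjusted p = 0.000438). Slc25a29 (ENSRNOG00000004351), a carrier of basic amino acids, had 2.63, 2.56 and 3.25 CPM in control and 3.97, 3.80 and 4.46 CPM in high glucose, a rise of 1.45-fold (0.54 ± 0.14, adjusted p = 0.0063). Slc25a44, a carrier of branched-chain amino acids, rose 1.15-fold (0.20 ± 0.053). Slc25a2, an ornithine carrier, did not overlap between groups, with 1.94 to 2.30 CPM in control and 2.53 to 3.06 in high glucose, but it missed the threshold (0.40 ± 0.16, adjusted p = 0.0516), and it passed in 6 of the alternatives. In the rat genome table it overlaps Taf7, a subunit of a general transcription factor, whose own log2 difference was 0.44 ± 0.064 (adjusted p = 5.81e-05), and reads of overlapping genes may not be told apart. The main ornithine carrier Slc25a15 had a log2 difference of 0.00 (95% interval -0.16 to 0.16), and the glutamate carrier Slc25a18 one of -0.15 (-0.95 to 0.64) on 46 and 43 reads. In all, 4 of the 8 amino acid carriers rose (24.9% of all genes did), 1 fell and 3 did not pass, and 5 rose and 1 fell with plain totals (35.8% of all genes rose there).

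The stretches before the gene starts are shown for Slc25a33, which had the lowest log2 difference of the 44 members, and for Slc25a12 and Slc25a13, which moved in opposite directions. They are the 250 bases upstream from RefSeq (GRCr8, which is not the build of the deposited data), 5′ to 3′ on the strand of the gene. Capitals mark matches to CACGTG (the E-box bound by Myc and by glucose-sensing factors), to GGGCGG (the GC box) and to TGACGTCA (the cAMP response element), on either strand.
Slc25a33, chr5:165502974-165503223, minus strand: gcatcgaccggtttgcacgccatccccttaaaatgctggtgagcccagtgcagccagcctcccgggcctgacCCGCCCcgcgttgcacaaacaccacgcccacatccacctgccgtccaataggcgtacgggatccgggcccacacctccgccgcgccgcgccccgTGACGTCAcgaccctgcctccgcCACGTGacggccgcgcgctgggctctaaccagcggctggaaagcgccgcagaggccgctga
Slc25a13, chr4:35328361-35328610, minus strand: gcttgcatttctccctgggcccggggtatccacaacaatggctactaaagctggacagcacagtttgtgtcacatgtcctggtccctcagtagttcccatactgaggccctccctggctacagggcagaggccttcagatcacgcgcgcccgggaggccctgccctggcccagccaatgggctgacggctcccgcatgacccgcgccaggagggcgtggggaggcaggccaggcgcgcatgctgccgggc
Slc25a12, chr3:76599537-76599786, minus strand: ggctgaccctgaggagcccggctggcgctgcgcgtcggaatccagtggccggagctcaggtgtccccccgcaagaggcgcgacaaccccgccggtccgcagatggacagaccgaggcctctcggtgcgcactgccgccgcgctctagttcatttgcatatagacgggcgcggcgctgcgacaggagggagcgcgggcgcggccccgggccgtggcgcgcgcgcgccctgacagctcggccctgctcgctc
The Slc25a33 stretch held 1 match to each of these motifs, and those of Slc25a12 and Slc25a13 held none. The GC content was 70.0% for Slc25a33, 66.0% for Slc25a13 and 74.0% for Slc25a12, with 30, 13 and 36 CpG pairs.

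Promoters of 300 bases (250 before and 50 after the start) were at hand for 39 of the 44 members and for 33469 genes in all. The 33469 were not limited to the 16551 genes of the mRNA table and included noncoding genes. The shares of all below are therefore no matched background for the members. TGATGNAA, the core of the amino acid response element bound by Atf4, was in 0 of the 39 and in 3.98% of all, and the palindromic motif of NRF1, a factor of mitochondrial genes, in 0 of the 39 and in 0.852% of all, both strands searched. CACGTG was in 5 of the 39 (12.8%, and 6.42% of all): in Slc25a33, which fell, in Slc25a2, Slc25a31 and Slc25a51, which did not pass, and in Slc25a48, which had no reads in control. TGACGTCA, searched after it was seen in the Slc25a33 sequence, was in Slc25a33 and Slc25a25 (5.13%, and 1.83% of all). GGGCGG was in 27 of the 39 (69.2%, and 33.1% of all), beside a median GC content of the upstream 250 bases of 58.0% in the members and 51.2% in all. No matches overlap in the sequences printed above, and a match in such a window is a match of letters only.

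Among the 6 carriers grouped as di- and tricarboxylate carriers there were 4 that rose and 1 that fell on the deposited scale, where 24.9% of all genes rose. With plain totals 4 rose and none fell, where 35.8% of all genes rose, and the median log2 difference on the deposited scale was 0.31. The call of Slc25a21, counted among the 4, was lost in 5 alternatives given below. Slc25a10 (ENSRNOG00000036693), the dicarboxylate carrier that exchanges malate or succinate for phosphate, had 16.6, 13.5 and 16.1 CPM in control and 19.4, 20.9 and 21.1 CPM in high glucose. It rose 1.33-fold with no overlap (0.41 ± 0.076, adjusted p = 0.000466). Slc25a11 (ENSRNOG00000003815), the oxoglutarate/malate carrier and the other arm of the malate-aspartate shuttle, rose 1.15-fold (0.20 ± 0.041), from 32.8 to 33.6 CPM in control to 36.8 to 39.4 in high glucose. Slc25a35 (ENSRNOG00000004668), whose substrate is not settled and which was put in this class as a relative only, had 5.72, 6.15 and 5.85 CPM in control and 9.16, 7.34 and 9.15 CPM in high glucose. It rose 1.44-fold (0.52 ± 0.10), while Rangrf, a gene that overlaps it, had a log2 difference of -0.19 ± 0.10 and did not pass.

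Slc25a21 (ENSRNOG00000008931), the oxodicarboxylate carrier of lysine and tryptophan breakdown, had 0.720, 0.582 and 0.981 CPM in control and 1.10, 1.28 and 1.52 CPM in high glucose. It was 1.71-fold higher on 125 against 67 reads (0.78 ± 0.26, adjusted p = 0.0252), with no overlap. The adjusted p ranged from 0.0112 to 0.1 and lay above 0.05 after quantile normalization (0.0506) and without control 1 (0.0541), control 2 (0.0902), high glucose 2 (0.057) or high glucose 3 (0.1). Slc25a21 overlaps Pax9, a developmental transcription factor gene, which was higher as well (0.47 ± 0.098). Slc25a1 (ENSRNOG00000038001), the carrier that exports citrate for fatty acid and sterol synthesis, went the other way. It had 75.0, 75.1 and 72.7 CPM in control and 68.4, 68.1 and 65.5 CPM in high glucose (-0.14 ± 0.032, adjusted p = 0.002), and with plain totals it had a log2 difference of -0.03 that did not pass (adjusted p = 0.505). Slc25a34 did not pass (-0.13, 95% interval -1.02 to 0.77).

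Among iron and glutathione carriers, Slc25a37 (ENSRNOG00000015495, mitoferrin 1), which brings iron to the matrix for haem and iron-sulfur clusters, had 7.81, 9.38 and 8.79 CPM in control and 6.46, 5.94 and 5.37 CPM in high glucose. It fell with no overlap (-0.55 ± 0.10, adjusted p = 0.000533). Its widely expressed relative Slc25a28 (mitoferrin 2) overlapped between the groups, at 13.8 to 16.7 CPM in control and 14.3 to 15.1 in high glucose, and did not pass (-0.03, 95% interval -0.19 to 0.13). Slc25a39 (ENSRNOG00000020994), an importer of glutathione, had 89.0, 85.9 and 86.9 CPM in control and 80.9, 82.6 and 76.7 CPM in high glucose (-0.12 ± 0.033, adjusted p = 0.00691). With plain totals it did not pass (-0.01, adjusted p = 0.826), nor with a single variance prior (adjusted p = 0.0594), and 8 pseudogenes are named after it in the gene table. Its relative Slc25a40 did not pass (-0.19, 95% interval -0.44 to 0.06). Of the 4 in this class 2 fell, or 1 with plain totals, and none rose, beside the 25.5% and 17.2% of all genes that fell.

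Slc25a20 (ENSRNOG00000020288), the carnitine/acylcarnitine carrier of fatty acid oxidation, was 1.12-fold higher (0.16 ± 0.044, adjusted p = 0.00915), with 37.1, 36.5 and 39.1 CPM in control and 40.1, 41.9 and 43.8 CPM in high glucose. The samples did not overlap, and its adjusted p lay above 0.05 with a single variance prior (0.0546). Of its relatives, Slc25a48 (ENSRNOG00000012040), a carrier reported to take up choline, had 0 reads in each control sample and 4, 5 and 3 reads in the high-glucose samples. Set against a floor of 3 reads over the control group, its 12 reads gave a ratio of 3.70, a description with no test. The counting error of the 12 reads is not in that ratio, and so few reads allow no closer value. Slc25a45 did not overlap between groups and did not pass (0.68 ± 0.30, adjusted p = 0.0773); with plain totals (adjusted p = 0.0395) or without control 3 (0.0227) it did. Slc25a47, known from liver, did not pass (0.21, 95% interval -0.28 to 0.69).

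Of the carriers that resemble uncoupling proteins, Slc25a27 (ENSRNOG00000010592), known as UCP4 and from nervous tissue, had 2.99, 4.21 and 3.55 CPM in control and 5.13, 5.01 and 4.90 CPM in high glucose. It rose 1.41-fold with no overlap (0.50 ± 0.14, adjusted p = 0.00758). Of the 12 pan-neuronal markers 7 were lower, 1 was higher (Syt1, a synaptic vesicle protein, 0.88 ± 0.068) and 4 did not pass, with a median log2 difference of -1.50, and their part in this result was not tested. Slc25a14 and Slc25a30 did not pass (-0.13, 95% interval -0.33 to 0.08, and -0.12, -0.27 to 0.03), although the groups of Slc25a30 did not overlap. Slc25a46 (ENSRNOG00000017091), an outer membrane protein of mitochondrial shape and dynamics, had 33.3, 32.9 and 34.4 CPM in control and 31.0, 28.4 and 28.6 CPM in high glucose (-0.19 ± 0.047, adjusted p = 0.0033), and it did not pass with plain totals (-0.08, adjusted p = 0.172). Slc25a43 did not pass on 42 and 46 reads (-0.02, 95% interval -0.80 to 0.76). Slc25a54, which was put in no class and which overlaps Slc25a24 in the gene table, had 2 reads in control and 7 in high glucose, so the ratio was 3.24 and its exact interval from counting error (95%) ran from 0.616 to 31.9.

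Carriers with a like substrate were then compared as ratios within each sample, which no scaling of the libraries changes. For 7 pairs, named with earlier results of these data known, the log2 ratio was set between the groups with a two-sided exact permutation test over samples, which cannot go below p = 0.1 with 3 against 3. Slc25a12 over Slc25a13 had log2 ratios of 0.51, 0.42 and 0.46 in control and 1.41, 1.28 and 1.21 in high glucose, a 1.79-fold shift (exact permutation p = 0.1, adjusted over the 7 pairs 0.175). Because Slc25a12 rose and Slc25a13 fell, each without overlap, that ratio had to separate the groups. Its p therefore adds nothing to the results of the single genes. Slc25a36 over Slc25a33 went from 2.92, 2.61 and 2.65 to 3.70, 3.69 and 4.06, a 2.13-fold shift with the same p. Slc25a28 over Slc25a37 shifted 1.43-fold and Slc25a2 over Slc25a15 1.32-fold, both without overlap and with the same p. The balance of the ADP/ATP carriers, Slc25a4 over Slc25a5, overlapped, at 1.82, 1.69 and 1.72 in control and 1.97, 1.73 and 1.99 in high glucose (exact permutation p = 0.2). Slc25a39 over Slc25a40 and Slc25a24 over Slc25a25 overlapped too (exact permutation p = 0.6 and 0.4).

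**Figure D3:**
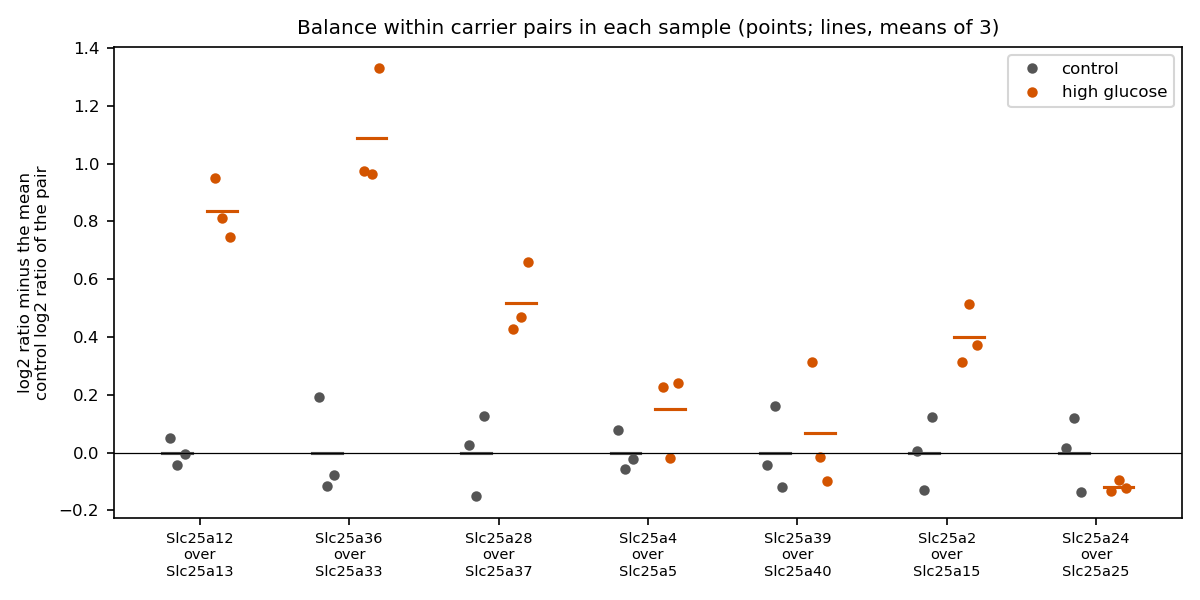
Log2 ratio of the first to the second carrier of 7 pairs in each sample, minus the mean control log2 ratio of that pair (y axis); points are samples, short lines the means of 3. For Slc25a12 over Slc25a13 the high-glucose mean lies 0.84 above control and for Slc25a36 over Slc25a33 1.09 above, while the points of Slc25a4 over Slc25a5 overlap.

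Other genes of the same mitochondrial routes were taken from lists that were set with earlier results of these data known. Their counts are descriptions beside the 24.9% of all genes that rose and 25.5% that fell, or 35.8% and 17.2% with plain totals. Of 3 family members with other names, 2 fell and none rose: Ucp2, an uncoupling protein found in many tissues, was 1.6-fold lower (-0.68 ± 0.059), and Mtch1, an outer membrane member, had -0.16 ± 0.023. With plain totals 1 of the 3 fell. Of 10 genes of the pyruvate carrier, the sideroflexins and the outer membrane channels, 6 fell and 1 rose, 5 and 2 with plain totals, and 4 fell without control 3 or without high glucose 1. The rise, that of Sfxn5 (0.33), was not called without control 2, high glucose 2 or high glucose 3. Sfxn1, a serine transporter, had a log2 difference of -0.55 ± 0.027, Vdac2, a channel of the outer membrane, -0.38 ± 0.027, and Sfxn2 -2.0 ± 0.60. Sfxn2 had 7, 26 and 56 reads in the control samples and 3, 7 and 8 in high glucose, and its difference was -2.75 without control 1, -1.33 without control 3 (adjusted p = 0.0845) and -1.64 without high glucose 1 (adjusted p = 0.0634). The pyruvate carrier subunits Mpc1 and Mpc2 did not pass (0.02 and 0.04). Of 10 genes of the carrier import machinery, 5 fell and 1 rose, and 4 fell and 2 rose with plain totals. This list joins Tomm genes of the outer membrane to genes that bring carriers into the inner membrane. On the deposited scale Tomm70, Tomm20 and Tomm40 were among the 5 that fell, and Tomm22 did not pass. Timm10, a chaperone of the intermembrane space, had -0.65 ± 0.11, Agk, a subunit of the insertion complex, -0.50 ± 0.069, and Tomm40, the entry pore, -0.36 ± 0.049, whereas Timm22, the insertion channel itself, chosen here after its value was seen, rose (0.34 ± 0.060).

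Enzymes on either side of the carriers moved in both directions. Their counts stand beside the 24.9% of all genes that rose and 25.5% that fell, or 35.8% and 17.2% with plain totals. Of 10 enzymes of the malate-aspartate and citrate shuttles 4 rose and 4 fell, or 6 and 2 with plain totals: Me1, malic enzyme, rose by 0.40 ± 0.026, Acly, which cleaves exported citrate, by 0.35 ± 0.019, and Mdh2, the matrix malate dehydrogenase, had -0.28 ± 0.034. Of 6 genes listed under the carnitine shuttle 4 rose and none fell, under both scalings. Cpt1a, which makes acylcarnitine at the outer membrane, was 2.44-fold higher (1.29 ± 0.077). Cpt2, its partner at the inner membrane, was 1.24-fold higher (0.31 ± 0.074), beside the 1.12-fold rise of Slc25a20. Cpt1c, listed with them although its part in this shuttle was not examined here, was 1.72-fold higher (0.78 ± 0.059). Of 5 enzymes of mitochondrial folate metabolism 3 fell and 1 rose, under both scalings, while the folate carrier Slc25a32 rose. The call of the 1 that rose, Aldh1l2 (0.06, named like Sfxn5 after its value was seen), was lost whichever sample was left out. Mthfd1l had -0.72 ± 0.045, Mthfd2 -0.63 ± 0.038 and Shmt2 -0.60 ± 0.027, all enzymes that pass carbon units from serine to formate.

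Of 11 genes of iron-sulfur cluster and haem synthesis, 3 rose and 4 fell, or 5 and 1 with plain totals. Of these 2 fell without control 1, control 2 or high glucose 2. Here too the shares of all genes were 24.9% higher and 25.5% lower, or 35.8% and 17.2% with plain totals. Iscu, the cluster scaffold, rose by 0.56 ± 0.047 and Fech, which inserts iron to make haem, by 0.45 ± 0.054. The ferredoxin gene Fdx1l had -0.36 ± 0.057. Of 6 genes of ornithine, proline and glutamate metabolism 2 rose and 2 fell, or 2 and 1 with plain totals: Oat (0.28 ± 0.028) and Glud1 (0.21 ± 0.027), which handle ornithine and glutamate in the matrix, rose, and Pycr1, of proline synthesis, had -0.54 ± 0.062. Of 7 genes of the mitochondrial calcium uniporter, 3 rose and 3 fell, or 4 and 2 with plain totals, and 1 rose without high glucose 1. Mcu, the pore, had -0.44 ± 0.032 and its regulator Mcur1 -0.33 ± 0.076, and Mcub, the pore subunit that lowers transport, was 1.80-fold higher (0.85 ± 0.097).

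**Figure D4:**
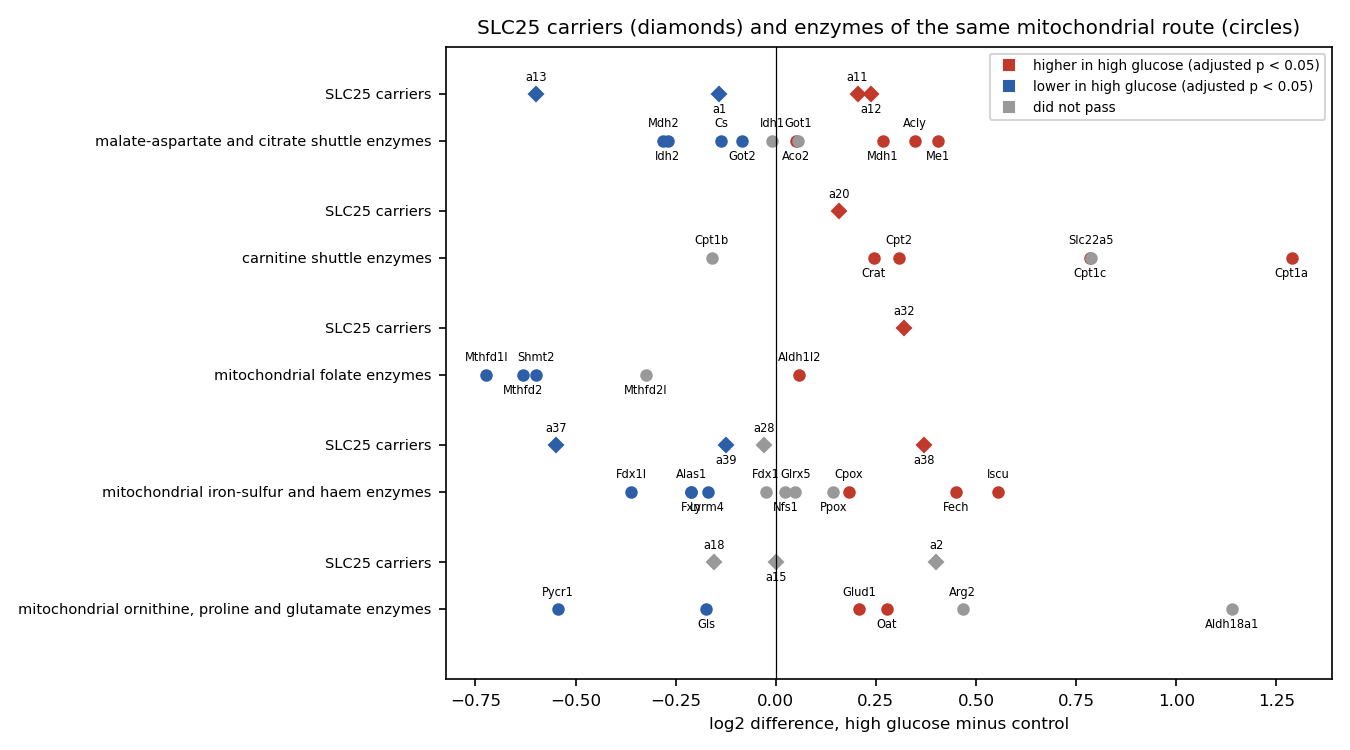
Log2 difference, high glucose minus control (x axis), of SLC25 carriers (diamonds, named by their number) and of genes listed under the same route (circles). The 5 routes run from top to bottom, and red is higher, blue lower and grey did not pass. In the carnitine row Slc25a20 at 0.16 and Cpt1a at 1.29 lie to the right of 0, and in the folate row Slc25a32 at 0.32 lies to the right and Mthfd1l at -0.72 to the left.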

How the data were processed

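Per the submitters' processing notes the tools were featureCounts 1.6.0, HISAT2 2.1.0 and fastp 0.19.4 on build Rnor_6.0, with roles, order and settings not stated there. The growth protocol mentions fixation, and the labels do not say whether it applied to the sequenced cells. The authors deposited log2 values of reads plus 0.5 relative to a scaled library size (CPM), voom-normalized per the file name; annotation version and counting strand were not given in the sources used here. Undoing the log2 gave whole reads for 100% of values (within 0.01), and CPM here are those reads over the scaled library. Each gene had reads in at least 3 samples, so the table had been filtered.

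High glucose was compared with control, 3 samples each, with limma 3.58.1 in R 4.3.3 (mean-variance trend, deposited log2 values, two-sided, Benjamini-Hochberg over all genes, threshold 0.05). The script was tested on simulated data. Replicates differed by a mean chi-square per gene of 3.01 to 4.80 within groups, so none was a copy. Where a symbol stood on several rows, lists took the row with the highest mean. Members and lists were chosen with earlier results of these data known. Values per sample were printed for the 10 largest rises and 10 largest falls that passed and for 6 central carriers, the others by class. Beyond that rule they were printed for Slc25a20 and Slc25a36. Of the other lists, up to 3 that passed were named. Of the members so named, 1 is not reported here. All 44 members matched RefSeq names (GRCr8), used for names, overlaps and promoters only; 25 overlap another gene there. CACGTG and GGGCGG were added to the motifs after the data were seen. Alternatives covered scaling, filters, variance prior, offset, left-out samples, a replicate block and, added after seeing the data, voom weights. Figures used matplotlib 3.10.9 in Python 3.11.15.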

Additional observations from a re-analysis of the deposited data

How the results depend on the processing

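Over 15 alternatives to the reported setting, 624 of 645 values of single members kept their side of the threshold, 11 no longer passed, 10 newly passed, and no called value changed sign. Of the 624, 29 values of 11 members that did not pass changed sign. The count of members that passed lower was 6 with plain library totals and the median log2 difference of the members was 0.10 (0.1025) there, a shift in which all genes shared (0.11), so this scaling sets the small differences. Leaving out 1 sample gave a median of -0.0261 to 0.0429 and 12 to 15 members higher, with 10 lower each time; the median was 0.0342 without control 3 and 0.0429 without high glucose 2. With the replicate number as a block, 13 members were higher and 10 lower, and all 23 calls were kept. Same-numbered samples correlated at 0.093, 0.13 and -0.19 in their deviations from the group means, and not every sample correlated best with its own number. With 3 samples a group, such deviations cannot settle whether the numbers pair the samples. The planned count tests with edgeR and DESeq2 were not run, although whole reads could be recovered, because such tests were kept to tables deposited as counts. Voom weights on the recovered reads gave 14 higher and 10 lower. Differences of members with few reads, such as Slc25a31, Slc25a48 and Slc25a54, were limited by depth.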
